A study of Mus musculus with 4 samples.

Results

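The alarmin receptors of group 2 innate lymphoid cells (ILC2) were taken by name as 4 genes, Il1rl1, Il17rb, Crlf2 and Il18r1, and each was found as exactly 1 of the 11352 rows named as genes on plate 1. From mouse pancreas, single ILC2 were sorted by index sorting into 384 wells on each of 4 plates and sequenced from the 3′ ends of their polyadenylated RNA with SORT-seq, which builds on CEL-seq2. The cells compared here were 8 photoconverted cells and 98 non-photoconverted cells of plate 1, with 221 empty wells of the same plate as background. Both colours share the genotype label C57BL6J and carry KIKR, a fluorescent protein that turns irreversibly from green to red under violet light. Red thus marks a cell lit at an earlier time, whereas green marks one sorted as not converted and does not show that it was never lit. Red intensity was 2202 to 29626 in the 8 photoconverted cells and at most 1527 in the 98 non-photoconverted cells. The limit between them in the sort is not given. Neither an age nor an animal nor a feeding state is given for any cell, although fasting is in the title of the series, and the tissue that was lit and the antibodies of the sort are not given in the sources used here. A sort on a receptor's own protein would set the share of cells with its transcript, which could not be checked. All values below come from 1 plate without replicate, so they describe these cells and no p-value was computed.

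Alarmins are cytokines that epithelial and stromal cells release when they are stressed or damaged, and ILC2 answer them by making type 2 cytokines. Il1rl1 encodes ST2, which binds interleukin-33 and signals with the accessory chain IL-1RAcP (Il1rap) through MyD88 and IRAK kinases. Il17rb binds interleukin-25 and pairs with IL-17RA (Il17ra), which recruits the adaptor Act1 (Traf3ip2). Crlf2 is the thymic stromal lymphopoietin receptor chain, which pairs with the interleukin-7 receptor (Il7r) and signals through JAK1, JAK2 and STAT5. Il18r1 binds interleukin-18 and pairs with Il18rap, and it is best known from T cells, NK cells and skin ILC2.

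The 4 receptor genes lie at 3 places in the mouse genome (mm10, GENCODE M21). Il1rl1 spans chr1:40429570-40465415 on the plus strand, and Il18r1 follows it on the same strand at chr1:40465552-40500854, with 136 bases between the end of the first and the start of the second. Il17rb lies at chr14:29996135-30008896 and Crlf2 at chr5:109554709-109558993, both on the minus strand. The deposited count is summed per gene, so it cannot tell the membrane and soluble forms of ST2 apart, nor the promoter from which a transcript started. Il1rl1 has 2 known promoters in mouse, a distal one used by mast cells and type 2 lymphocytes and a proximal one first described in fibroblasts. The 250 bases before the start sites of the 2 receptors that were detected most often are given here. Gata3, the lineage factor of ILC2, was found in most of these cells, and the capitals mark motifs of the kind it recognises. The windows are from RefSeq on GRCm38.p6 and run 5′ to 3′ on the strand of the gene. Capitals mark the motif AGATAA, its form AGATAG and, with another first letter, TGATAA and also TGATAG, on either strand.
Il1rl1, distal, chr1:40429320-40429569, plus strand: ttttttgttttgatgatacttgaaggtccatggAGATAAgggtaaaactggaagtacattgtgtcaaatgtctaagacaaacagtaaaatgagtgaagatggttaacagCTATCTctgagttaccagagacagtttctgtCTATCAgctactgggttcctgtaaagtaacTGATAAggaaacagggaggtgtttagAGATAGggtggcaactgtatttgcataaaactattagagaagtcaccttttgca
Il1rl1, proximal, chr1:40439379-40439628, plus strand: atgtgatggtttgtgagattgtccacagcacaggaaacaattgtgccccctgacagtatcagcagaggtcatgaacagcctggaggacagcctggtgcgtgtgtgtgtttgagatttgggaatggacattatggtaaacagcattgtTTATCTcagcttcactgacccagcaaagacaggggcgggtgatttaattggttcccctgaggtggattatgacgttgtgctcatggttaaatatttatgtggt
Il17rb, chr14:30008897-30009146, minus strand: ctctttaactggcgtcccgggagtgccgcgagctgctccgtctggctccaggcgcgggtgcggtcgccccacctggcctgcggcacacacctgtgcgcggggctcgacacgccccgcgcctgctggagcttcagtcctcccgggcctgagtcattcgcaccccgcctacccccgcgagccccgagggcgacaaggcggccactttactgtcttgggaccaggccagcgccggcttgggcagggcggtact
The distal Il1rl1 window held 5 matches, the proximal one held 1, and the Il17rb window held 0. At least 1 match was present in 26.5% of the 32851 mouse promoter windows of this length in the table, and 5 or more, a number taken from the distal Il1rl1 window itself, in 0.0426%, or 14 windows. A match describes letters only and does not show that a factor binds there, and a window without one says nothing of the factor. Gata3 itself reached 16 reads in all 8 photoconverted cells and 82 of 98 non-photoconverted cells.

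The gene names of the table could be used on plate 1 only. The 78 rows named as spike-in RNAs, synthetic transcripts added to each well, held 43.2% of the reads of plate 1 and were its block of 78 rows with most reads, whereas on plates 2, 3 and 4 that block lay 119 and 12 rows ahead of them and 61 rows behind. Of 163 sorted wells, 12 were photoconverted and 151 non-photoconverted, and 8 and 98 of these passed a filter of at least 500 genes and under 25% mitochondrial reads. Photoconverted cells held a median of 540662 gene reads and 2748.5 genes, against 187690 reads and 1637 genes in non-photoconverted cells and 353 reads and 92 genes in empty wells. A depth-matched set was also used, made of the 5 non-photoconverted cells nearest in number of genes to each photoconverted cell. It filled 40 places with 29 distinct cells, at a median over places of 2718.5 genes and 483926 gene reads. The photoconverted cells thus stayed deeper in reads. With 16 reads or more, they held a median of 1834.5 genes, against 1507 in the 29 distinct matched cells. Of 11 analysed ILC2 markers, 10 reached 16 reads in a photoconverted cell and 11 in a non-photoconverted cell, and 8 of 8 photoconverted and 78 of 98 non-photoconverted cells held at least 3 of them. Of the T cell receptor complex, Cd3e was detected in 0 of 8 photoconverted and 0 of 98 non-photoconverted cells, Cd3d in 1 of 8 photoconverted and 2 of 98 non-photoconverted cells, and Cd3g in 2 of 8 photoconverted and 9 of 98 non-photoconverted cells.

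Il1rl1 was the receptor found most widely, in all 8 photoconverted cells and in most non-photoconverted cells, and Il17rb was second in non-photoconverted cells. Crlf2 was detected in few cells of either colour, and Il18r1 in 1 cell of the 106. A gene counted as detected in a well at 16 reads or more. This limit was set because empty wells held a median of 92 genes at 1 read or more and 3 genes at 16 or more. Among the receptors the smaller values were frequent in empty wells for Il1rl1 only, with 1 to 15 reads in 51 of 221 wells, against 8 wells for Il17rb and 0 each for Crlf2 and Il18r1.

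**Figure D1:**
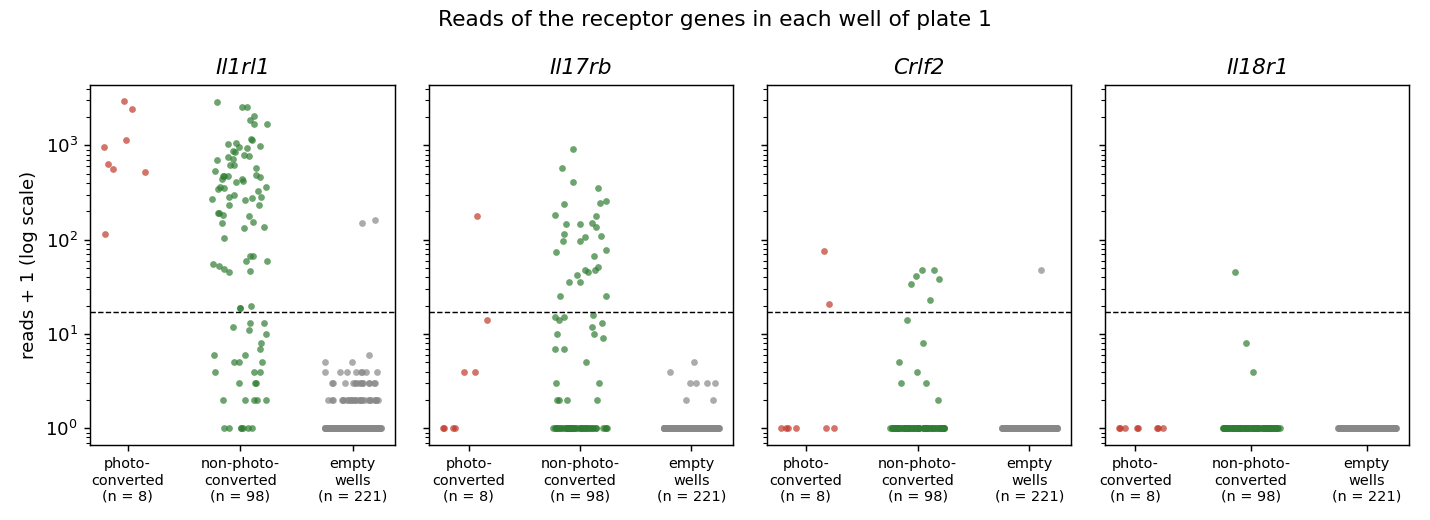
Reads plus 1 (log axis) of the 4 receptor genes in each photoconverted cell, non-photoconverted cell and empty well of plate 1, 1 point per well, with a dashed line at the detection limit of 16 reads. All 8 photoconverted cells lie above it for Il1rl1, with 114 to 2933 reads, and 1 of 8 does for Il17rb.

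Il1rl1, the receptor for interleukin-33, was read in every photoconverted cell. The 8 cells, in plate order, held 962, 567, 520, 2413, 114, 2933, 1144 and 632 reads. The 98 non-photoconverted cells ranged between 0 and 2883 reads with a median of 185.5. The groups overlapped, with the lowest photoconverted cell, at 114 reads, below the median of the other colour and the highest, at 2933 reads, above all of its cells. At the low end, 30 non-photoconverted and 0 photoconverted cells were under 16 reads. Detection was 8 of 8 in photoconverted cells (exact 95% binomial interval 63.1 to 100%), 87.5% of matched places and 69.4% of all non-photoconverted cells (68 cells, 59.3 to 78.3%). The difference from matched cells was 12.5 percentage points, and the matched share lay inside the interval of the photoconverted share. Near the limit, 5 non-photoconverted cells lay within 8 to 15 reads and 3 within 16 to 31, and 0 photoconverted cells lay in either range.

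Levels of Il1rl1 varied widely among cells of 1 colour. Scaled to counts per 1000000 gene reads without spike-ins (CPM), the 8 photoconverted cells ranged over 483 to 11178 CPM with a median of 1444 CPM. The 40 matched places ranged over 1.40 to 7886 CPM with a median of 1236 CPM, and all 98 non-photoconverted cells over 0 to 10857 CPM with a median of 736 CPM. The mean was 2981 CPM in photoconverted cells and 1746 CPM in matched cells, a log2 ratio of 0.77 after 10 CPM was added to each mean. That ratio was 0.12 without the photoconverted cell in well G3, which had the highest Il1rl1 level of the 8 at 11178 CPM and the fewest gene reads at 56539. Over the 3188 genes tested the median log2 ratio was -0.27, and 11.4% of them were at 1 or above. Il1rl1 was not among those.

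Il17rb, the receptor for interleukin-25, was detected in a smaller share of photoconverted than of matched cells. The 8 photoconverted cells held, in the same order, 3, 0, 13, 3, 0, 0, 179 and 0 reads. The non-photoconverted cells held 0 to 906 reads with a median of 0. A single photoconverted cell, in well F16, stood clearly above the limit, and the other 7 held 13 reads or fewer although 6 of them had 235870 gene reads or more. Detection was 12.5% of photoconverted cells (1 of 8, interval 0.316 to 52.7%), 57.5% of matched places and 30.6% of all non-photoconverted cells (30 of 98, 21.7 to 40.7%), and 0 of 221 empty wells, a count that is compatible with a share of at most 1.36%. The difference from matched cells was -45 points, and the matched share lay just above the interval of the photoconverted share. That interval leaves out the error of the matched share itself. The matched share rests on 29 distinct cells that count as 22.9 evenly weighted ones, so the comparison is not a test.

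Set against all genes, this difference was among the lowest. Of 3188 genes detected in at least 10% of the 106 cells, 5.80% were lower by 25 points or more in photoconverted than in matched cells, 12.5% were higher by that much, and the median difference was 2.5 points. Of the 4 receptors, 2 passed that filter, and of these Il17rb was lower by 25 points or more and Il1rl1 was not. Il17rb shared rank 7 from the lowest with 3 other genes, and 0.910% of the genes were lower by 40 points or more. A gene can fall by 25 or 40 points only where its matched share is at least that large. The 3188 genes include some that could not, such as Il17ra at 17.5% of matched places, so the rank and these percentages are partly set by the shares. Its mean level was 25 CPM in photoconverted cells and 218 CPM in matched cells, a log2 ratio of -2.70, where 26.5% of genes were at -1 or below. Without the cell in F16 it was -3.997.

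**Figure D2:**
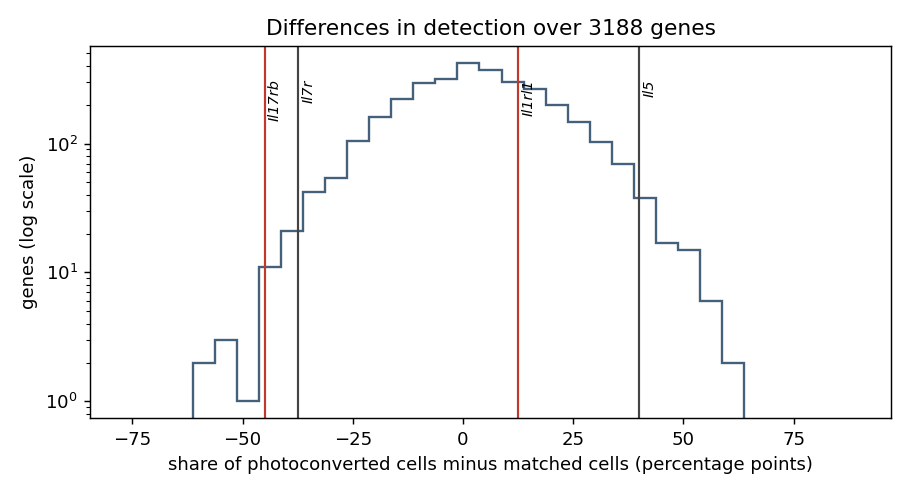
Number of genes (log axis) by the share of photoconverted cells minus the share of depth-matched non-photoconverted cells with 16 or more reads, in percentage points, over 3188 genes, with vertical lines at 4 genes. Il17rb lies at -45 points near the low end, Il7r at -37.5, Il1rl1 at 12.5 and Il5 at 40.

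The size of the Il17rb difference depended on how reads and cells were counted. Just below the limit, at 8 to 15 reads, lay 1 photoconverted and 9 non-photoconverted cells, and just above it, at 16 to 31 reads, 0 photoconverted and 2 non-photoconverted cells. With 1 read or more as detection, 50% of photoconverted cells (4 of 8) and 75% of matched places had the gene, a difference of -25 points. Against all 98 non-photoconverted cells the difference was -18.1 points. When every cell was drawn down to 1000 gene reads, the expected share with a read was 2.33% of photoconverted and 10.5% of all non-photoconverted cells, a difference of -8.21 points. Without the 2 photoconverted cells of lowest red fluorescence, F16 at an intensity of 2202 and G3 at 2338, detection was 0 of 6, against 63.3% of cells matched to those 6. The direction was the same in each case. Among the 4 photoconverted wells that failed the cell filter, B4 held 71 reads of Il17rb among only 3015 gene reads and had the highest red intensity of the plate, at 37397. With all sorted wells included, the shares were 16.7% of 12 photoconverted wells and 43.3% of their matched wells.

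**Figure D3:**
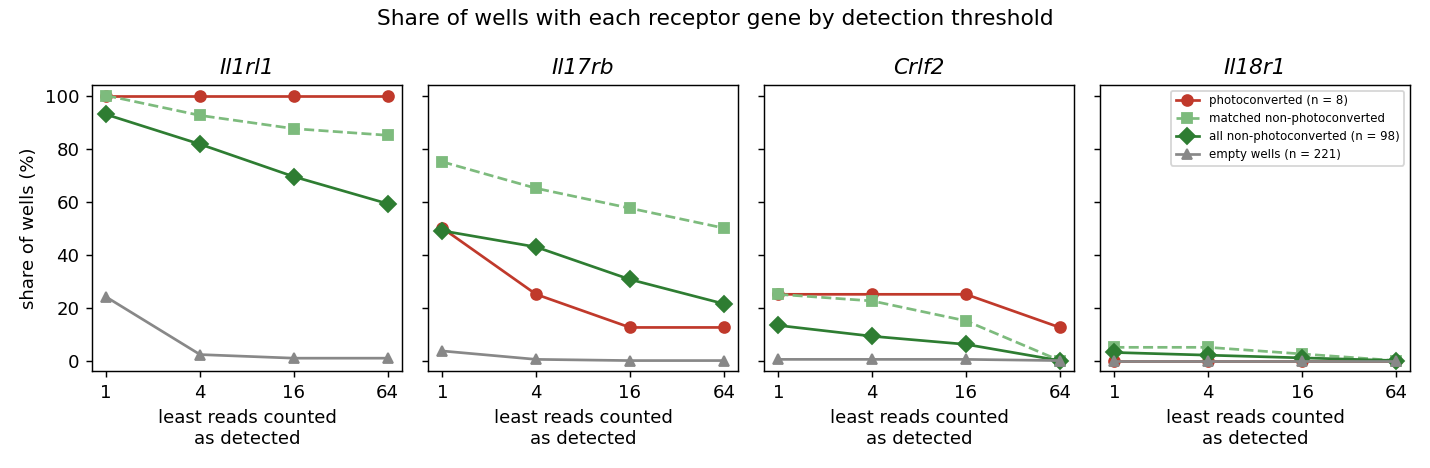
Share of wells (%) with each receptor gene by the least number of reads counted as detected (1, 4, 16 or 64), for photoconverted cells, depth-matched non-photoconverted cells, all non-photoconverted cells and empty wells. The photoconverted line lies at 100% throughout for Il1rl1, and for Il17rb it lies below the matched line at each limit, by 25 to 45 points.

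Crlf2, the receptor chain for thymic stromal lymphopoietin, was detected in 2 of 8 photoconverted cells (25%, interval 3.19 to 65.1%), 15% of matched places and 6 of 98 non-photoconverted cells (6.12%, interval 2.28 to 12.9%). The photoconverted cells with reads were C7 with 75 reads and D10 with 20 reads, and the other 6 held 0. The 6 non-photoconverted cells held 22 to 47 reads. Levels overlapped, except that C7 had more reads than any non-photoconverted cell. The matched share, lower by 10 points, lay inside the interval of the photoconverted share. The log2 ratio of mean levels, 1.01 in favour of photoconverted cells, was -0.26 without C7. In the empty wells Crlf2 reached the limit once, with 47 reads, as many as in the highest non-photoconverted cell, so single positives of this size also occurred in wells without a sorted cell.

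Il18r1, the receptor for interleukin-18, had 0 reads in all 8 photoconverted cells, a count compatible with a share of at most 37.5%. It had 45, 7 and 3 reads in 3 non-photoconverted cells and 0 in the other 95, so that 1 of 98 passed the limit (1.02%). The 3 cells also held Il1rl1 reads, 325, 231 and 18. Empty wells held 0 reads in 221. The photoconverted cell with 2933 Il1rl1 reads was among those with 0 Il18r1 reads. The gap of 136 bases lies between the 3′ end of Il1rl1 and the start of Il18r1. Counts summed per gene do not show where in Il18r1 its reads lie, and this was not tested.

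Detection of the receptors was more frequent in cells with more genes, for Il17rb above all between the middle and the highest depth. Non-photoconverted cells were ordered by genes and cut into 3 depth groups of 33, 33 and 32 cells. Over the lowest, middle and highest group (502 to 1194, 1220 to 2026 and 2067 to 4480 genes), Il17rb was detected in 9.09%, 15.2% and 68.8% of cells. Il1rl1 was detected in 42.4%, 78.8% and 87.5%. All 6 Crlf2 cells and the Il18r1 cell lay in the highest group. Of the 8 photoconverted cells, 7 held 2189 genes or more, above the 2067 genes at which the highest group starts. Of these, 1 cell, with 5129 genes, exceeded that group. In the highest group the Il17rb interval of 50 to 83.9% overlapped the photoconverted interval of 0.316 to 52.7%.

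**Figure D4:**
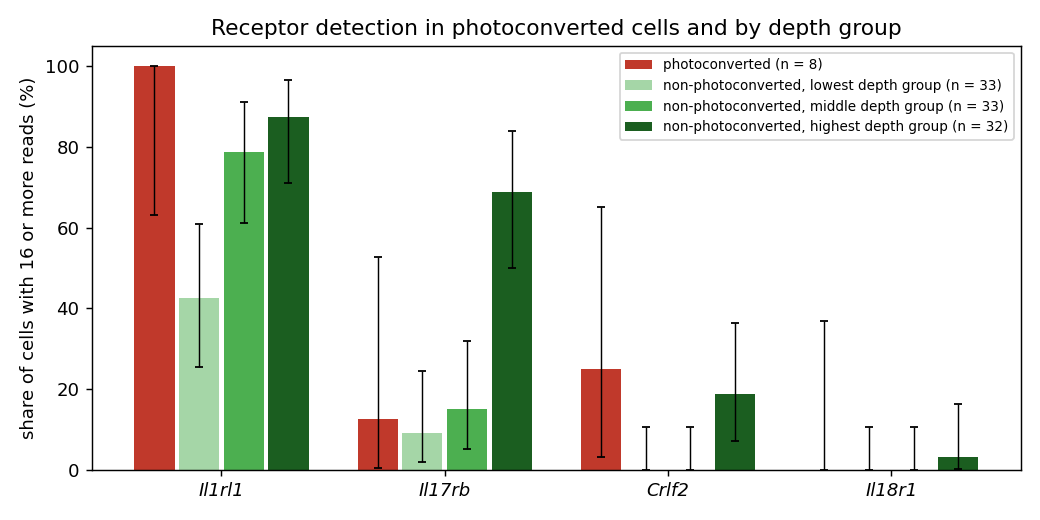
Share of cells (%) with 16 or more reads of each receptor gene in photoconverted cells and in the lowest, middle and highest depth group of non-photoconverted cells, with exact 95% binomial intervals as error bars. Il17rb stands at 12.5% in photoconverted cells and at 68.8% in the highest depth group.

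Most cells held transcripts of 1 or 2 of the receptors. Of the 8 photoconverted cells, 0 lacked all 4, 5 had 1 and 3 had 2. Of the 98 non-photoconverted cells, 24 lacked all 4, 47 had 1, 23 had 2, 4 had 3 and 0 had all 4. In photoconverted cells each second receptor stood beside Il1rl1, with Il17rb in 1 cell and Crlf2 in 2 cells, and 0 cells held both Il17rb and Crlf2.

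Il1rl1 and Il17rb were found together about as often as their shares and the depth of the cells would give. Among non-photoconverted cells, 25 had both (25.5%, interval 17.2 to 35.3%), 43 had Il1rl1 alone, 5 had Il17rb alone and 25 had neither. The product of the 2 shares gives 20.8 cells over all, and 24.5 cells when it is taken within the 3 depth groups and summed. Il1rl1 was detected in 83.3% of the 30 cells with Il17rb and 63.2% of the 68 cells without it, and cells with Il17rb held a median of 2483 genes, against 1359.5 in cells without it. Within the highest depth group it was detected in 20 of 22 cells with Il17rb and 8 of 10 without. Across the 98 cells the Spearman correlation of the 2 levels was 0.01, a description of cells that share a plate and differ in depth. Crlf2 stood beside Il1rl1 in 5 of its 6 non-photoconverted cells and beside Il17rb in 3.

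**Figure D5:**
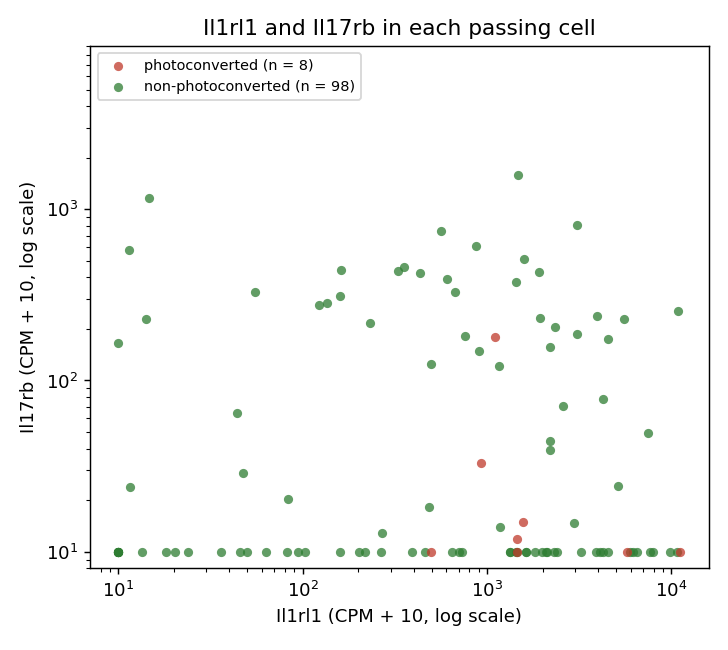
Level of Il17rb against level of Il1rl1 in each of the 8 photoconverted and 98 non-photoconverted cells that passed the filter, both as CPM plus 10 on log axes. The photoconverted cells lie at 483 CPM of Il1rl1 or more, and 1 of them, at 171 CPM of Il17rb, lies among the non-photoconverted cells that hold both transcripts.

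The partner chains of the receptors were detected unevenly. Il7r, the partner of Crlf2 and the interleukin-7 receptor itself, was read in photoconverted cells with 5, 0, 244, 76, 188, 69, 1 and 1 reads, and in non-photoconverted cells with 0 to 1238 reads and a median of 39. It was detected in 4 of 8 photoconverted cells (50%, interval 15.7 to 84.3%), 87.5% of matched places and 60 of 98 non-photoconverted cells, a difference from matched cells of -37.5 points. Il17ra, the partner of Il17rb, was detected in 3 of 8 photoconverted cells, with 132, 172 and 237 reads, 17.5% of matched places and 10 of 98 non-photoconverted cells. Il1rap was detected in 0 of 8 photoconverted and 5 of 98 non-photoconverted cells, and Il18rap in 0 of 8 photoconverted and 4 of 98 non-photoconverted cells. Of the 4 partners, 2 passed the filter on detection, and 1 of these, Il7r, was lower by 25 points or more, as were 5.80% of all genes. The other, Il17ra, could not be, at 17.5% of matched places.

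Transcripts of both chains of a receptor were seldom found in the same cell at this depth. In each pair at least 1 chain was itself detected in few cells. Within depth groups the product of shares gives 3.47 non-photoconverted cells for Il1rl1 with Il1rap and 3.48 for Il17rb with Il17ra. For Crlf2 with Il7r it gives 5.44 cells, and for Il18r1 with Il18rap 0.06. Il1rl1 and Il1rap were both detected in 0 of 8 photoconverted and 5 of 98 non-photoconverted cells, so that each of the 5 cells with Il1rap also had Il1rl1. Il17rb and Il17ra were both detected in 1 of 8 photoconverted and 4 of 98 non-photoconverted cells. The photoconverted cell was F16, with 179 and 237 reads. Crlf2 and Il7r were both detected in 1 of 8 photoconverted and 4 of 98 non-photoconverted cells, and Il18r1 and Il18rap together in 0 cells of either colour. A chain below 16 reads is not shown to be absent. Of other receptors of the same families, 3 of 6 were analysed, and none of these, Il1r1, Il17rd and Il17re, reached 16 reads in any of the 8 photoconverted cells, while 0, 1 and 2 of the 98 non-photoconverted cells had them.

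Signalling genes downstream of the receptors were detected about equally in both colours as a list. Of 14 signal transducers, 7 were detected in a larger and 5 in a smaller share of photoconverted than of matched cells, with a median difference of 2.5 points, equal to the 2.5 points over all genes. Nfkb1, a subunit of NF-kappaB, was detected in 75% of photoconverted and 80% of matched cells, and Jak1, a kinase of cytokine receptors, in 87.5% of photoconverted and 80% of matched cells. Myd88, the adaptor of the interleukin-1 and interleukin-18 receptor family, was detected in 37.5% of photoconverted and 22.5% of matched cells, and Traf3ip2, the adaptor of Il17rb and Il17ra, in 25% of each. Among the 6 that did not pass the filter on detection, Map3k7, the kinase TAK1, was detected in 0 of 8 photoconverted cells and 30% of matched cells, and STAT5 genes stood on both sides, Stat5a in 25% of photoconverted cells and 0% of matched cells, and Stat5b in 0 of 8 photoconverted cells and 25% of matched cells. Of 9 inhibitors, 6 were higher and 1 was lower in photoconverted than in matched cells, with a median of 5 points, against 2.5 points over all genes. None of the 5 that passed the filter differed by 25 points or more, where 5.80% of all genes were lower and 12.5% higher by that much. Tollip, which did not pass the filter, was detected in 37.5% of photoconverted and 7.5% of matched cells, a difference of 30 points. Tnfaip3, which encodes the NF-kappaB inhibitor A20, was detected in 100% of photoconverted and 90% of matched cells, Nfkbia in 100% of each, and Cish, a feedback inhibitor of STAT5 signalling, in 75% of photoconverted and 70% of matched cells. The lower one was Socs1, at 12.5% of photoconverted and 25% of matched cells.

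Other activating receptors of ILC2 were mostly detected in as many photoconverted as matched cells, or in more. Of 8 analysed, 5 were higher and 2 lower in photoconverted than in matched cells, with a median of 7.5 points, and 1 of the 6 that passed the filter, Il4ra, was higher by 25 points or more, as were 12.5% of all genes, at 62.5% of photoconverted and 12.5% of matched cells. Il2ra, the high-affinity chain of the interleukin-2 receptor, was detected in 75% of photoconverted and 60% of matched cells, and Tnfrsf18, which encodes GITR, in 62.5% of each. Tnfrsf25, the receptor for TL1A, was detected in 50% of photoconverted and 35% of matched cells, and Icos, a costimulatory receptor, in 50% of photoconverted and 70% of matched cells. Of 8 cytokine and chemokine genes, 7 were higher and 1 was lower in photoconverted than in matched cells. Their median was 27.5 points, against 2.5 points over all genes. Of the 6 that passed the filter, 5 were higher by 25 points or more, as were 12.5% of all genes. Il4, 1 of these 5, reached 10% of cells only with the photoconverted cells counted. Il5 was detected in 87.5% of photoconverted and 47.5% of matched cells and Csf2, which encodes GM-CSF, in 75% of photoconverted and 45% of matched cells. The lower one was Il13, at 0 of 8 photoconverted cells and 20% of matched cells. The genes of the 4 ligands were not analysed here.

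Within non-photoconverted cells co-detection of the receptors with these genes stayed near the count that the shares and depth give. Over 3013 genes, 5 were found with Il1rl1 in at least 5 points more cells, as a share of all 98, than the product of shares within depth groups gives (0.166%), and 10 with Il17rb (0.332%). Lower by as much were 1 gene for Il1rl1 (0.0332%) and 2 genes for Il17rb (0.0664%). None of the listed genes was among them for either receptor. For some of them 5 points more was out of reach, because the shares cap the excess. Gata3 and Nfkbia, for example, were detected in all 30 cells with Il17rb, at only 2.22 and 1.54 points more. The nearest for Il1rl1 were Klrg1, an inhibitory surface receptor of mature ILC2, with 47 of its 56 cells and 3.24 points more, and Csf2, with 32 of 36 cells and 3.12 points more. The nearest for Il17rb was Calca, the gene of the peptide CGRP, with 16 of 37 cells and 3.32 points more. Il5 stood beside Il1rl1 in 18 of its 23 cells, against 18.3 given by the shares, and beside Il17rb in 13, against 11.3.

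The genes with the most similar levels to Il1rl1 over the 98 cells, out of 2878, were Cnst (Spearman rho 0.42), Fam107b (0.40) and Tmem179b (0.37). For Il17rb they were Lypla2 (0.54), Nop58 (0.46) and Frmd4b (0.44). The level of Il17rb had a rho of 0.46 with the number of genes per cell, as high as that with Nop58, and Il1rl1 had 0.20, so the points share depth. The median rho over all genes was 0.06 for Il1rl1 and 0.16 for Il17rb.

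Of the markers of other cell types, Kit and Cst3 were each detected in a larger share of photoconverted than of matched cells, by 30 and 35 points, and the others in few cells of either colour. T cell markers, 4 of 6 analysed, were detected in 2 of 8 photoconverted and 10 of 98 non-photoconverted cells, chiefly Cd3g, with summed levels of 0 to 327 CPM in photoconverted and 0 to 2126 CPM in non-photoconverted cells. Of the mast cell list, 1 gene of 7 was analysed, Kit, which ILC progenitors also carry. It was detected in 5 of 8 photoconverted cells, 32.5% of matched places and 18 of 98 non-photoconverted cells, with 0 to 857 CPM in photoconverted and 0 to 1589 CPM in non-photoconverted cells. Of the myeloid list, 2 of 6 were analysed. Cst3 was detected in 6 of 8 photoconverted cells, 40% of matched places and 29 of 98 non-photoconverted cells, and H2-Aa in 0 of 8 photoconverted cells, 17.5% of matched places and 4 of 98 non-photoconverted cells. Their summed levels were 0 to 937 CPM in photoconverted and 0 to 6953 CPM in non-photoconverted cells. Markers of B cells, of NK cells or ILC1, of ILC3, of acinar cells and of stromal or endothelial cells each reached 16 reads in 0 of the 8 photoconverted cells, against 5, 5, 3, 0 and 9 of the 98 non-photoconverted cells in that order. In the same order, 1 of 4, 2 of 6, 2 of 4, 2 of 4 and 1 of 4 listed genes were analysed. Of 4 endocrine markers 0 were analysed. Kit was found with Il1rl1 in 14 of its 18 non-photoconverted cells, against 14.3 given by the shares within depth groups, and with Il17rb in 8, against 7.97. The part of Kit and Cst3 cells in the colour differences of the receptors was not tested.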

How the data were processed

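Per the labels' protocols, single ILC2 were sorted into plates for SORT-seq and libraries followed a CEL-seq2-based method. The authors deposited raw read counts per gene and well, not counts of molecular identifiers, and a sort record with colour and red fluorescence intensity in arbitrary units, which was used as deposited. The tools STAR, STARsolo and edgeR and the build mm10 are named, without versions or roles, per the submitters' processing notes.

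Plate 1 cells passed with 500 genes (each with a read) and a mitochondrial share under 25%. Each photoconverted cell was matched to the 5 nearest non-photoconverted cells in log genes. Drawing down to 1000 gene reads used the exact expected share, and CPM excluded spike-ins, with 10 added before log2. Intervals are exact Clopper-Pearson at 95%, and a count of 0 allows 3 counts. They cover counting error only, since PCR copies are not independent molecules, and cells of 1 plate are not replicates. With 1 plate no test was possible. Called differences are 25 points, or 1 on the log2 scale. Of each list, genes detected in at least 10% of non-photoconverted cells could be named with values; Il1rap, Il18rap, Il13, H2-Aa and the other genes below that were named after their values were seen. Genes of like level were the 3 with the highest Spearman rho, without ribosomal protein genes, numbered models and pseudogenes. The functions were tested on simulated data. Members and lists were chosen with earlier results of these data known. Python 3.11.15 was used, with pandas and scipy, and the GENCODE M21 annotation is on the build of the files. Plates 2 to 4 were not used for named genes, because rows do not carry the same gene there.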

Additional observations from a re-analysis of the deposited data

Results flagged for a closer look

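Il1rl1 was detected outside the cells that were compared. Of the 53 non-photoconverted wells that failed the filter on genes and mitochondrial reads, 4 held 16 or more reads of Il1rl1, with 68 to 216 reads, which is 7.55% (exact 95% interval 2.09 to 18.2%). Of the 221 empty wells, 2 did, or 0.905%, with 150 and 161 reads. Failing wells are not used in the comparisons above.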

How the results depend on the processing

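The Il1rl1 share difference, 12.5 points, was 15 with detection at 64 reads, 17.5 with 10 nearest cells and 20 matched on gene reads. Without matching, against all non-photoconverted cells, it was 30.6. Drawn down to 1000 gene reads it was 22.8, also against all non-photoconverted cells and with 1 read as detection. It was smaller with 3 nearest cells (4.17), detection at 4 reads (7.5) and cells of at least 1000 genes (8.57). The same held without the 2 photoconverted cells of lowest red fluorescence (6.67), with cells of at least 300 genes (9.09) and with all sorted wells (8.33). At 1 read or more it was 0, since every matched cell then held Il1rl1. The Il17rb difference was -63.3 points without the 2 photoconverted cells of lowest red fluorescence, -8.21 points when drawn down to 1000 gene reads, and between these under the other alternatives, against -45 points as reported. The Il18r1 difference of -2.5 points rests on 1 cell, and was -5 with detection at 1 and at 4 reads, -2.86 in cells of at least 1000 genes, -4.17 with 3 nearest cells and -3.33 without the 2 cells of lowest red fluorescence.

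Leaving out each photoconverted cell in turn gave share differences of 8.57 to 14.3 points for Il1rl1, -54.3 to -40 for Il17rb, 0 to 14.3 for Crlf2 and -2.86 to 0 for Il18r1. The log2 ratios of level were 0.12 to 0.96 for Il1rl1, -3.997 to -2.41 for Il17rb and -0.26 to 1.17 for Crlf2, whose reversal came without the cell in C7, which held 75 Crlf2 reads. No level ratio was computed for Il18r1, which had 0 reads in photoconverted cells. Scaled to spike-in reads, the ratios were 0.90, -2.49 and 1.13. Co-detection of Crlf2 with Il18r1, at -0.06 points from the product of shares, was -0.19 at 4 reads, -0.19 within depth groups and -0.10 in cells of at least 1000 genes; that of Il17rb with Crlf2 was 1.19 points, and -1.15 within depth groups. No paired analysis was possible because the values come from 1 plate and from no test. With 8 photoconverted cells, a share has an interval of at least 36.9 points.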
